A study of Mus musculus with 6 samples.

Results

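The CC chemokine receptors are the G protein-coupled receptors through which T cells follow gradients of CC chemokines. The 9 receptors described here, Ccr1, Ccr2, Ccr3, Ccr4, Ccr6, Ccr7, Ccr8, Ccr9 and Ccr10, were taken by symbol from a deposited table of 15106 genes, and each had 1 row. They were measured by RNA sequencing in regulatory T cells (Tregs, 4 libraries) and effector T cells (Teffs, 2 libraries), both sorted from the skin of mice aged 6 weeks, for which the labels name no treatment. Mice of both groups carried FOXP3-GFP, a green fluorescent reporter of the transcription factor that defines Tregs. The labels give neither the surface markers of the sort nor the number of mice behind a library, so p-values cover the spread among these libraries only, and some of that spread may be technical.

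Chemokine receptors couple to inhibitory G proteins, turn on integrins and the actin cytoskeleton, and are then silenced by receptor kinases and arrestins. By their known uses they fall into groups. Ccr1, Ccr2 and Ccr3 are inflammatory receptors of a gene cluster and answer ligands such as CCL5, CCL2 and the eotaxins. Ccr4, Ccr8 and Ccr10 are linked to T cell traffic in skin, Ccr6 answers CCL20 made by epithelium, Ccr7 steers cells out of tissue towards lymph nodes, and Ccr9 steers them to the gut.

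Libraries held 4902126 to 7468778 counts in genes. Levels are given as CPM, counts divided by library size in gene counts and scaled by trimmed mean of M-values (TMM), and 3 counts corresponded to 0.397 to 0.581 CPM. All 6 T cell markers were counted in every library, summing to 3928 to 7867 CPM in Tregs and 7337 to 7876 CPM in Teffs. Foxp3 stood at 103, 233, 154 and 183 CPM in Treg 1 to Treg 4, against 11.3 and 7.17 CPM in Teff 1 and Teff 2. Libraries of a group differed among themselves, more so in Tregs, with Spearman correlations of 0.649 to 0.748 between Treg libraries and 0.883 between the Teff libraries. Treg 3 stood apart in fibroblast and keratinocyte transcripts: its 5 fibroblast markers summed to 1991 CPM and its keratinocyte markers to 566 CPM, against at most 8.30 and 20.7 CPM in the other Treg libraries, and 176 and 90.2 CPM in Teff 1.

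Of the 9 receptors, 4 separated the Treg from the Teff libraries and 5 did not. Ccr3, Ccr1, Ccr6 and Ccr2 had higher levels in all 4 Treg libraries than in both Teff libraries, while Ccr8, Ccr4, Ccr10, Ccr7 and Ccr9 overlapped between the groups. Over the 11775 genes tested, the groups did not overlap for 15% of genes, 5.51% with Tregs above and 9.49% with Tregs below, and no receptor was below. All 9 receptors passed the filter on low counts, Ccr3 and Ccr1 only through their counts in Tregs. None was called by edgeR's quasi-likelihood test at an adjusted p under 0.05 over all genes, a test that called 0.0425% of genes (0.034% higher and 0.00849% lower in Tregs). At an unadjusted p under 0.05 it had 3 receptors, Ccr3, Ccr1 and Ccr6, each higher in Tregs, against 4.73% of all genes (2.42% higher in Tregs). DESeq2 called the same 3 as higher in Tregs, where it called 1.6% of genes (1.16% higher and 0.432% lower). The authors' deposited table has Ccr3 and Ccr1 at a false discovery rate (FDR) under 0.05, a rate passed by 0.285% of its genes (0.192% higher in Tregs). In these bulk libraries, fewer cells with a transcript and less of it per cell cannot be told apart.

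**Figure D1:**
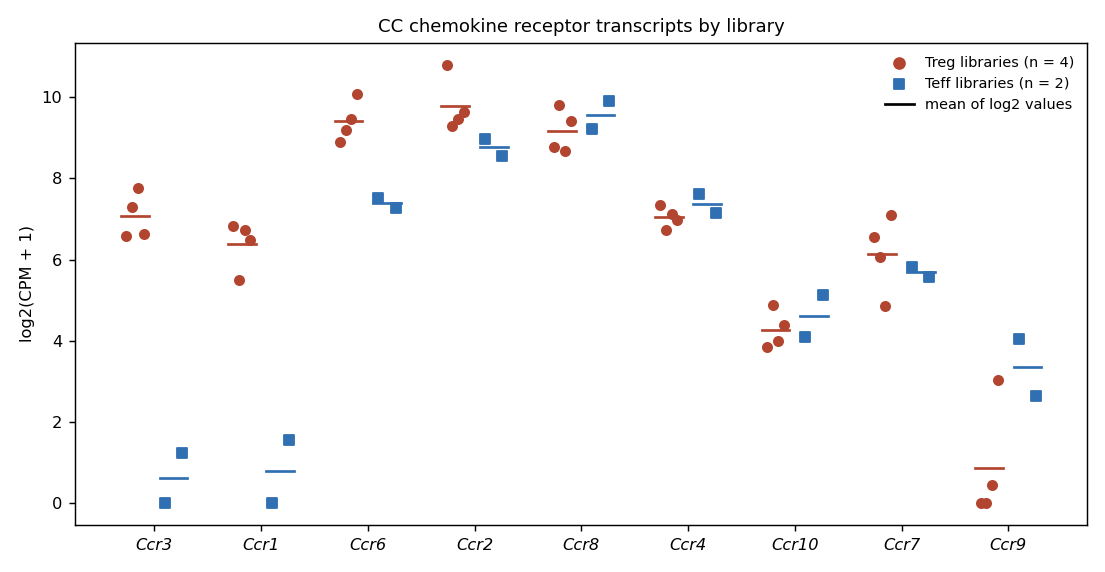
Each point is 1 library, with its level as log2(CPM + 1) on the vertical axis, Tregs as circles on the left and Teffs as squares on the right of each receptor, and horizontal bars at group means. For Ccr3, Ccr1, Ccr6 and Ccr2 all 4 Treg points lie above both Teff points, and for the other receptors the groups overlap.

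Ccr3, the receptor for eotaxins that is best known from eosinophils, had the largest fold change of the 9 in either direction. It stood at 95.2, 157, 217 and 98.0 CPM in Treg 1 to Treg 4, against 0 and 1.36 CPM in Teff 1 and Teff 2. Every Treg library thus held Ccr3, while the Teff libraries held 7 counts in all, each of them in Teff 2. The log2 fold change, Treg over Teff, was 7.77 ± 1.41 (SE; edgeR unadjusted p = 0.000582, adjusted p = 0.225). It was 6.67 without Teff 1 and 12.81 without Teff 2, where no Teff count is left and the fitted value depends on the prior count. In the authors' deposited table it is 7.72, with an FDR of 3.48e-05. DESeq2 gave 7.83 ± 1.0 (adjusted p = 4.37e-12, within a range of 4.37e-12 to 0.58 over the alternative analyses). Pooled over libraries and divided by depth, Ccr3 counts had a ratio of 254.7, and its exact 95% interval for counting error ran from 123.5 to 634.0. Teff 1 was the deepest library, and the Treg mean was at least 357-fold above the level that 3 counts would give in it.

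Ccr1, a receptor for inflammatory chemokines such as CCL3 and CCL5, showed the same split. Its levels were 113, 43.8, 106 and 88.3 CPM in Treg 1 to Treg 4, against 0 and 1.94 CPM in Teff 1 and Teff 2. The lowest Treg library, Treg 2, was still far above Teff 2, whose 10 counts were all that Teffs held. The log2 fold change was 6.52 ± 1.61 (SE; edgeR unadjusted p = 0.00364, adjusted p = 0.51), and 5.47 without Teff 1 or 12.13 without Teff 2, again with no Teff count left. In the authors' deposited table Ccr1 has 6.49, with an FDR of 0.0320. DESeq2 gave 6.58 ± 1.13 (adjusted p = 1.6e-06, within a range of 1.6e-06 to 0.993 over the alternative analyses). Against 3 counts in Teff 1, the Treg mean was at least 221-fold higher. Of the Treg mean, Teff 1 and Teff 2 held 6.69% and 4.26% for Foxp3, 0 and 0.956% for Ccr3 and 0 and 2.21% for Ccr1. Low levels in Teffs were not particular to these receptors. Against Treg means of 2877 CPM for Ikzf2, 1336 for Il2ra and 3780 for Ctla4, Teff 1 had 89.6, 92.4 and 136 CPM. Teff 2 had 9.50, 29.3 and 167 CPM for these Treg markers.

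Ccr1 and Ccr3 are also transcribed by myeloid cells and granulocytes, so the markers of these cells were measured beside them. Of 8 eosinophil markers only Ear2 had a row in the table, at 0 to 0.428 CPM in Tregs and 0 to 0.194 CPM in Teffs. Of 10 mast cell and basophil markers only Kit had a row, at 0, 0, 8.41 and 26.1 CPM in Treg 1 to Treg 4, against 0.927 and 0 CPM in Teff 1 and Teff 2. The 6 neutrophil markers, of which S100a8 and Csf3r had rows, summed to 0 to 7.54 CPM in Tregs and 0 to 5.03 CPM in Teffs. Markers without a row have no value here, which is not a measured 0. The 12 macrophage and monocyte markers summed to 93.6, 200, 155 and 627 CPM in Treg 1 to Treg 4, against 310 and 257 CPM in Teff 1 and Teff 2. Of these 12, 4, 4, 8 and 10 had counts in Treg 1 to Treg 4, against 9 and 9 in Teff 1 and Teff 2. Lyz2, the lysozyme gene, was the largest part of the sum in every library, at 66.9, 166, 65.6 and 464 CPM in Treg 1 to Treg 4, against 186 and 136 CPM in Teff 1 and Teff 2. The 9 dendritic and Langerhans cell markers, 8 of them with rows, summed to 115 to 1076 CPM in Tregs and 466 to 1011 CPM in Teffs. Of the 7 tested, only Epcam separated the groups, as Ccr1 and Ccr3 did. Epcam stood at 48.2, 33.8, 17.9 and 53.2 CPM in Treg 1 to Treg 4, against 1.46 and 0.388 CPM in Teff 1 and Teff 2. Among the macrophage and monocyte markers, Cd68 alone separated them, with Tregs below (12.1 against 40.2 CPM on average). Markers of B cells stayed at or below 40.9 CPM in sum in every library. In Treg 3, the library with fibroblast and keratinocyte transcripts, Ccr3 was highest at 217 CPM. The part of any of these cells in the levels of Ccr1 and Ccr3 was not tested.

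Ccr6, the receptor for CCL20 and a marker of type 17 T cells, was abundant in both groups, and more so in Treg libraries. Its levels were 476, 589, 706 and 1073 CPM in Treg 1 to Treg 4, against 183 and 154 CPM in Teff 1 and Teff 2. Even Treg 1, the lowest Treg library, lay above both Teff libraries. Ccr6 had a log2 fold change of 2.08 ± 0.44 (SE; edgeR unadjusted p = 0.00142, adjusted p = 0.321). DESeq2 gave 2.09 ± 0.42 (adjusted p = 0.000111, within a range of 0.000111 to 1.0 over the alternative analyses), and the authors' deposited table has 2.02 at an FDR of 0.395. Unlike Ccr3 and Ccr1, Ccr6 was well counted in Teffs, with 1381 and 795 counts.

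Ccr2, the receptor for CCL2 that drives monocytes out of bone marrow and is also carried by activated T cells, was the fourth receptor without overlap. Levels of 1788, 621, 703 and 798 CPM were found in Treg 1 to Treg 4, against 505 and 373 CPM in Teff 1 and Teff 2. Treg 1 was far above the other Treg libraries, which lay closer to Teff 1. Ccr2 had a log2 fold change of 1.16 ± 0.51 (SE; edgeR unadjusted p = 0.0533, adjusted p = 1.0) and 0.69 without Treg 1. Of the stretches of 50 bases in Ccr2 transcripts, 1.91% also occur in transcripts of other genes, so a small share of its reads could be assigned elsewhere or dropped.

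**Figure D2:**
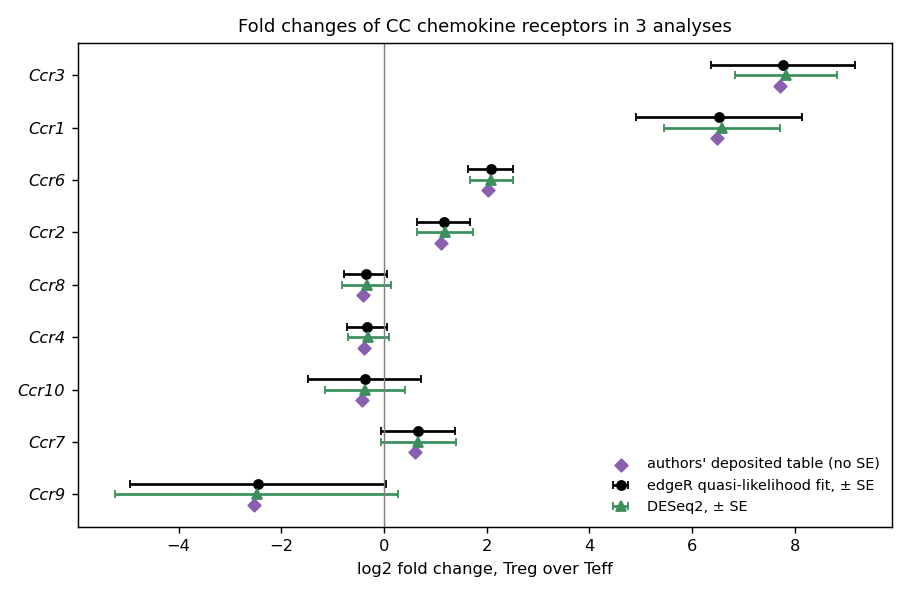
The horizontal axis is the log2 fold change, Treg over Teff, of each receptor in edgeR's quasi-likelihood fit and in DESeq2 (bars: SE) and in the authors' deposited table (no SE). The values of the 3 analyses lie close together, from 7.72 to 7.83 for Ccr3, whereas their calls differ.

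The sequence before the start of Ccr3, Ccr1 and Ccr6 is shown because these are the 3 receptors with the largest fold changes towards Tregs and with an unadjusted p under 0.05. Windows are the 250 bases before the RefSeq start (GRCm38.p6), 5′ to 3′ on the gene's strand, and capitals mark matches to motifs. The Ccr3 window is chr9:124021721-124021970 (plus strand), the Ccr1 window chr9:123968693-123968942 (minus strand) and the window of the first Ccr6 start chr17:8235793-8236042 (plus strand).
Ccr3: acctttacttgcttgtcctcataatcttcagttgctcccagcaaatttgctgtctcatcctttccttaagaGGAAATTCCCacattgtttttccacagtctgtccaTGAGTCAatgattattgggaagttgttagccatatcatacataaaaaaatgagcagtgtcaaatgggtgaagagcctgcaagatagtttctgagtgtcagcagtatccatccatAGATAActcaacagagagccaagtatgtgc
Ccr1: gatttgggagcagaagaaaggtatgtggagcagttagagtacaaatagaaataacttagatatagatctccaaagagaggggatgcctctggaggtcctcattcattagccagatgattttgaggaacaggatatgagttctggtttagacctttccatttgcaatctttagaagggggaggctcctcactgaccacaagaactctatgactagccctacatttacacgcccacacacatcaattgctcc
Ccr6: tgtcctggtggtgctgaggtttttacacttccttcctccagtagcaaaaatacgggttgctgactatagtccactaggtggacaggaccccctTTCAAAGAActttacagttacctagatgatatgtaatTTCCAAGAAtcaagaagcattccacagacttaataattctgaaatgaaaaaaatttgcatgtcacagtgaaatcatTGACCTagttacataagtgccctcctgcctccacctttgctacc

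The motifs were searched on both strands and none of the matches shown overlaps another. The Ccr3 window holds the NF-kB motif, GGG and TTTCC with any 2 bases between, which is in 1.41% of 32851 mouse windows of this length, the AP-1 motif TGANTCA (6.75% of windows) and the GATA motif AGATAA (9.99%). These matches begin 179, 144 and 30 bases before the start. The window of the first Ccr6 start holds the STAT motif TTCNNNGAA at 157 and 120 bases before the start (7.02% of windows) and the ROR half-site AGGTCA at 44 bases before it (14.0%). The window of another Ccr6 start (chr17:8242276-8242525, plus strand), not printed here, differs. It holds the GATA motif AGATAA at 70 bases before that start and no other motif searched. The Ccr1 window holds none of the 7 motifs searched, which also included the forkhead motif GTAAACA (3.17% of windows) and the T-box motif AGGTGTGA (1.12%). Windows of other receptors, not printed here, hold some of these motifs too. The AP-1 motif lies 143 bases before the start of Ccr4. The GATA motif lies 239 bases before that of Ccr8 and 97 bases before that of Ccr2. The Ccr9 window holds none. All these matches describe letters in the windows, and binding was not measured.

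The skin-homing receptors were expressed at overlapping levels. Ccr8, a receptor of tissue T cells whose ligands in mice are CCL1 and CCL8, stood at 434, 901, 405 and 681 CPM in Treg 1 to Treg 4, against 597 and 957 CPM in Teff 1 and Teff 2. Teff 1 lay inside the Treg range and Teff 2 just above it. With a log2 fold change of -0.36 ± 0.42 (SE; edgeR adjusted p = 1.0), the difference was smaller than its error. Ccr4, the receptor for CCL17 and CCL22, stood at 161, 105, 139 and 125 CPM in Treg 1 to Treg 4, against 195 and 140 CPM in Teff 1 and Teff 2. Only Treg 1 exceeded Teff 2, and without TMM scaling all 4 Treg libraries lay below both Teff libraries. Its log2 fold change of -0.34 ± 0.39 (SE; edgeR adjusted p = 1.0) had the smallest standard error among the 9 receptors. Ccr10, which answers the keratinocyte chemokine CCL27, was low at 13.3, 28.2, 14.9 and 19.8 CPM in Treg 1 to Treg 4, against 15.9 and 33.9 CPM in Teff 1 and Teff 2. Teff 1 lay inside the Treg range and Teff 2 above it, and the log2 fold change of -0.38 ± 1.10 (SE; edgeR adjusted p = 1.0) changed sign to 0.24 when Teff 2 was left out.

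Ccr7, which guides T cells to lymph nodes along CCL19 and CCL21, varied among Tregs more than between the groups. Ccr7 levels of 92.4, 65.4, 28.0 and 135 CPM were counted in Treg 1 to Treg 4, against 54.9 and 46.9 CPM in Teff 1 and Teff 2. Treg 3 was the only Treg library below the Teffs, and without it all Treg libraries lay above them. A log2 fold change of 0.66 ± 0.72 (SE; edgeR adjusted p = 1.0) resulted. Dendritic cells also transcribe Ccr7, and the order of the 4 Treg libraries was the same for Ccr7 and for the sum of the dendritic and Langerhans cell markers. This sum was 394, 384, 115 and 1076 CPM in Treg 1 to Treg 4, against 466 and 1011 CPM in Teff 1 and Teff 2. Its largest part, H2-Ab1, had another order, at 302, 319, 38.4 and 652 CPM in Treg 1 to Treg 4. Epcam and Flt3 had the order of Ccr7, while Xcr1 and Cd209a did not. Teff 2 had the lower Ccr7 of the Teffs with the higher marker sum, and the part of these cells in the Ccr7 level was not tested. Ccr9, the receptor for CCL25 of gut and thymus, was at or under the level of 3 counts in Treg 1 to Treg 3. Its levels were 0, 0, 0.351 and 7.13 CPM in Treg 1 to Treg 4, against 15.5 and 5.23 CPM in Teff 1 and Teff 2. Of its 52 counts in Tregs, 50 were in Treg 4, which lay between the Teff libraries. This gave a log2 fold change of -2.45 ± 2.49 (SE; edgeR adjusted p = 1.0), or -6.25 without Treg 4. Exons of annotated antisense genes overlap 19.04% of the exonic bases of Ccr9, exons of genes on its own strand overlap 2.62%, and 20.1% of its stretches of 50 bases occur in transcripts of other genes, so its counts are uncertain.

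To compare receptors with each other, CPM was divided by the length of each gene's merged exons in kilobases. On this per-kilobase scale Ccr8 was the highest CC receptor in all 6 libraries, at 515 ± 198 CPM per kb in Tregs (SD, n = 4) and 661 ± 216 CPM per kb in Teffs (SD, n = 2). Its level exceeded that of 99.5% of tested genes in Tregs and 99.7% in Teffs. In Tregs the order went on with Ccr6 (307 ± 112 CPM per kb), Ccr2 (145 ± 80.6), Ccr3 (43.4 ± 17.7), Ccr4 (42.8 ± 7.53), Ccr7 (40.6 ± 22.8), Ccr1 (31.0 ± 10.9), Ccr10 (11.0 ± 3.86) and Ccr9 (0.182 ± 0.342). Neighbours from Ccr8 to Ccr2 and from Ccr3 to Ccr10 overlapped in their ranges over Treg libraries, while Ccr2 lay above Ccr3 and Ccr10 above Ccr9 without overlap. On this scale Ccr6 was below Ccr8 in each Treg library and above Ccr2 in 3 of 4. The order depends on the lengths used. By CPM without division by length, the Treg means were 977.7 for Ccr2, 711.2 for Ccr6 and 605.1 for Ccr8. Ccr6 then exceeded Ccr8 in Treg 1, Treg 3 and Treg 4. Ccr8 still led in Teffs, with a mean of 777.0 CPM against 438.9 CPM for Ccr2. In Teffs Ccr8 stood alone. The next receptors, Ccr6 (72.6 ± 8.76 CPM per kb), Ccr2 (64.9 ± 13.8) and Ccr4 (54.2 ± 12.6), overlapped their neighbours in range. Ccr7 (25.7 ± 2.87), Ccr10 (14.4 ± 7.39) and Ccr9 (1.01 ± 0.707) followed, each below the one before without overlap, and Ccr1 (0.342 ± 0.484) and Ccr3 (0.207 ± 0.293) came last, with ranges that overlapped. Ccr3 and Ccr1 exceeded 89.8% and 84.8% of tested genes in Tregs, against 2.80% and 4.55% in Teffs.

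The summed per-kilobase level of the 9 receptors was 1014, 1259, 925 and 1342 CPM per kb in Treg 1 to Treg 4, against 763 and 1026 CPM per kb in Teff 1 and Teff 2, so the groups overlapped on this scale. Without division by length they did not overlap. The summed CPM was then 3172.7, 2511.4, 2319.5 and 3025.8 in Treg 1 to Treg 4, against 1566.6 and 1713.3 in Teff 1 and Teff 2. As a share of the sum, Ccr8 made up 36.4%, 60.9%, 37.3% and 43.2% in Treg 1 to Treg 4, against 66.6% and 79.4% in Teff 1 and Teff 2. Ccr6 made up 20.2%, 20.2%, 32.9% and 34.5% in Treg 1 to Treg 4, against 10.3% and 6.47% in Teff 1 and Teff 2. Both shares separated the groups, on opposite sides. Shares within a library are parts of the same sum and are not independent. A larger share of Ccr6 lowers that of Ccr8, whose CPM overlapped between the groups. Ccr3 and Ccr1 added 4.02% ± 2.20 and 2.88% ± 1.35 in Tregs (SD, n = 4) and 0.0202% ± 0.0286 and 0.0333% ± 0.0471 in Teffs (SD, n = 2). Ccr2 took 13.4% ± 8.64 in Tregs and 7.58% ± 3.12 in Teffs, with overlap. With 4 libraries against 2, an exact two-sided permutation test of a share cannot go below p = 0.0667, the value for the Ccr8 share. It was 0.133 for the shares of Ccr6, Ccr3 and Ccr1, and all 4 had 0.2 after Benjamini-Hochberg adjustment over the 9 shares. Within each library, the ratio of Ccr6 to Ccr8 on the per-kilobase scale was 0.556, 0.331, 0.883 and 0.798 in Treg 1 to Treg 4, against 0.155 and 0.0816 in Teff 1 and Teff 2.

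**Figure D3:**
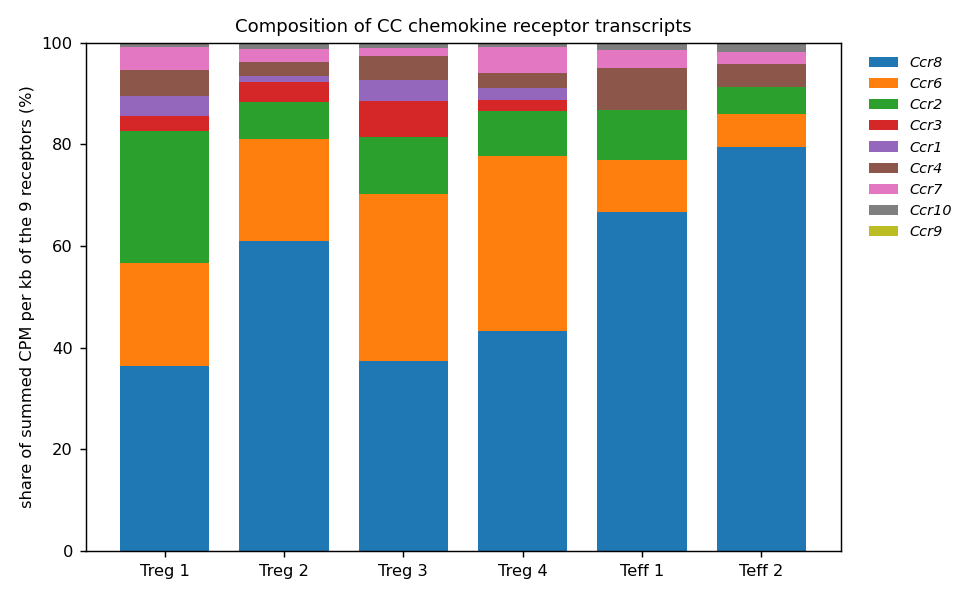
Each bar is 1 library, split by the share of each receptor in the summed CPM per kb of the 9 receptors (percent, vertical axis). Ccr8 takes 36.4% to 60.9% of the Treg bars and 66.6% to 79.4% of the Teff bars, and Ccr6, Ccr3 and Ccr1 take larger shares of the Treg bars.

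Ccr9, Ccr1, Ccr3 and Ccr2 lie in a cluster of 435.1 kb on chromosome 9, from 123678439 to 124113557 (GRCm38, GENCODE M21), with Ccr9 from 123678439 to 123784330, Ccr1 from 123962124 to 123968692 on the minus strand, Ccr3 from 124021972 to 124031689 and Ccr2 from 124101950 to 124113557. Ccr4 (114490316 to 114504916, minus strand) and Ccr8 (120092114 to 120094906) lie elsewhere on chromosome 9. Ccr7 (99144196 to 99155077) and Ccr10 (101172997 to 101175443) are on the minus strand of chromosome 11, and Ccr6 (8236043 to 8257141) is on chromosome 17. All 9 are annotated as protein-coding. The starts of Ccr1 and Ccr3, the receptors nearly missing from Teffs, are 53.3 kb apart. The next gene of the set along the chromosome, Ccr2, was well counted in both groups. On the other side of Ccr1, Xcr1, the receptor for XCL1, averaged 28.3 ± 22.7 CPM in Tregs (SD, n = 4), against 29.8 ± 0.597 CPM in Teffs (SD, n = 2), with a log2 fold change of -0.07 ± 1.10 (SE). Cxcr6, the receptor for CXCL16 and a marker of tissue-resident T cells, had a difference of the opposite sign, with a log2 fold change of -2.05 ± 0.39 (SE; edgeR unadjusted p = 0.000834, adjusted p = 0.272). It stood at 1355, 544, 681 and 1006 CPM in Treg 1 to Treg 4, against 3543 and 3871 CPM in Teff 1 and Teff 2, and its start lies at -162.2 kb from that of Ccr1 in chromosome coordinates. Fyco1 and Lztfl1, genes of the interval that encode no chemokine receptor, had log2 fold changes of -0.09 ± 0.55 and 0.39 ± 1.30 (SE).

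**Figure D4:**
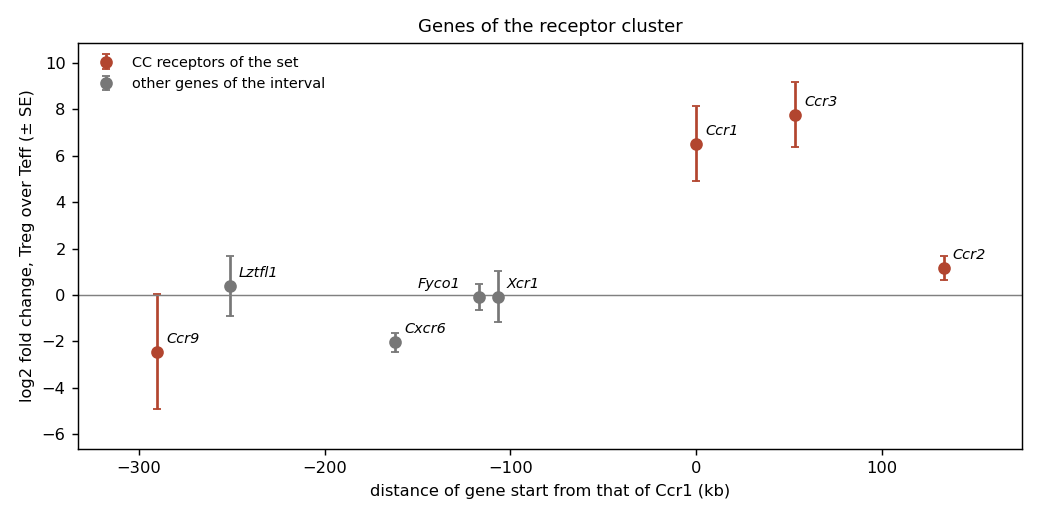
Log2 fold change, Treg over Teff (vertical axis, bars: SE), against the distance of each gene's start from that of Ccr1 in kb, for the tested genes of the chromosome 9 interval that are reported here. Ccr1 and Ccr3 lie at 6.52 and 7.77, Ccr2 at 1.16, and Cxcr6 at -2.05.

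Partners of the receptors were read from lists of pathway genes. Of 22 genes for G protein signalling and migration, 21 were tested and 0 were called in either direction by edgeR, with a median log2 fold change of 0.27, against 0.07 over all genes tested. The test called 0.0425% of all genes, so 0 calls in lists of this length cannot tell whether they differ. The 2 members with all Treg libraries above both Teff libraries were Rasgrp2 and Gnaq. Over all genes tested, 5.51% had Tregs above and 9.49% had Tregs below without overlap. Members of these lists without overlap are therefore named as a description. Gnaq, a G protein alpha subunit, averaged 167 ± 72.7 CPM in Tregs, against 53.5 ± 10.9 CPM in Teffs (fold change 1.65 ± 0.53 on the log2 scale, edgeR unadjusted p = 0.0148, adjusted p = 0.721). The member below was Was, an actin regulator, with 23.0 ± 11.3 CPM in Tregs, against 60.4 ± 9.41 CPM in Teffs (edgeR unadjusted p = 0.131). Pik3cg, the lipid kinase subunit downstream of these receptors, averaged 73.7 ± 33.3 CPM in Tregs, against 156 ± 76.8 CPM in Teffs, with overlap. Of 15 genes of desensitization and receptor sulfation, all were tested, 0 were called by edgeR and the median was -0.42. At an unadjusted p under 0.05 edgeR had 0 of them, against 4.73% of all genes. Arrb1, which encodes an arrestin, was the 1 member without overlap, with 75.8 ± 16.3 CPM in Tregs, against 30.4 ± 2.44 CPM in Teffs (fold change 1.32 ± 0.62 on the log2 scale, edgeR unadjusted p = 0.0662). The groups overlapped for Grk6, a receptor kinase, with 86.1 ± 64.7 CPM in Tregs, against 169.5 ± 69.5 CPM in Teffs. They also overlapped for Rgs3, which speeds G protein shut-off, with 1.98, 65.4, 14.9 and 6.13 CPM in Treg 1 to Treg 4, against 63.3 and 93.0 CPM in Teff 1 and Teff 2.

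Of 6 atypical and decoy receptors, 3 were tested and 0 were called by edgeR, against 0.0425% of all genes. Ccrl2, which binds chemerin and does not signal by itself, had 274, 115, 116 and 162 CPM in Treg 1 to Treg 4, against 13.9 and 39.3 CPM in Teff 1 and Teff 2. All Treg libraries were above both Teff libraries, as for 5.51% of all genes tested (log2 fold change 2.65 ± 0.68, SE, edgeR unadjusted p = 0.00457, adjusted p = 0.572). Ackr1 had no count in 3 Treg libraries and in Teff 1, and Ackr4 had none in 2 Treg libraries.

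Of 20 CC ligands, 14 had rows, 9 were tested and 0 were called by edgeR, against 0.0425% of all genes. The median log2 fold change of the ligands was -0.32, also with Ccl1 placed at its bound. Ccl1, a ligand of Ccr8, had no count in any Treg library and was at 13.6 and 23.1 CPM in Teff 1 and Teff 2, so it was at least 143-fold lower in Tregs, against 3 counts over the group (edgeR unadjusted p = 0.0102, adjusted p = 0.721). Ccl8, the other Ccr8 ligand in mice, stood at 0, 0, 82.7 and 60.5 CPM in Treg 1 to Treg 4, against 2.12 and 3.10 CPM in Teff 1 and Teff 2. Ccl5, a ligand of Ccr1 and Ccr3, stood at 84.2, 53.9, 17.9 and 110 CPM in Treg 1 to Treg 4, against 199 and 235 CPM in Teff 1 and Teff 2. Ccl5 had a log2 fold change of -1.71 ± 0.65 (SE; edgeR unadjusted p = 0.0300, adjusted p = 0.839). For Ccl1 and Ccl5 no Treg library reached either Teff library, as for 9.49% of all genes tested. Cytotoxic cells also make Ccl5, and the markers of CD8, gamma-delta and natural killer cells, 5 of 6 with rows, summed to 0.180 to 89.6 CPM in Tregs and 117 to 152 CPM in Teffs. Their part in the Ccl5 level was not tested.

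Beside Ccr7, 5 genes of lymph node recirculation were tested and 0 were called by edgeR, against 0.0425% of all genes. The median log2 fold change of these 5 was -0.29. S1pr1, the receptor that lets lymphocytes leave tissue and lymph nodes, averaged 65.4 ± 33.8 CPM in Tregs, against 155.5 ± 21.4 CPM in Teffs, without overlap (fold change -1.25 ± 0.54 on the log2 scale, edgeR unadjusted p = 0.0486, adjusted p = 1.0). It was the 1 member of this list without overlap, with Tregs below as for 9.49% of all genes tested. An unadjusted p under 0.05 was reached by 4.73% of all genes. Itga4, an integrin subunit for entry into tissue, had 35.0, 0, 0.351 and 25.5 CPM in Treg 1 to Treg 4, against 50.2 and 21.3 CPM in Teff 1 and Teff 2.

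**Figure D5:**
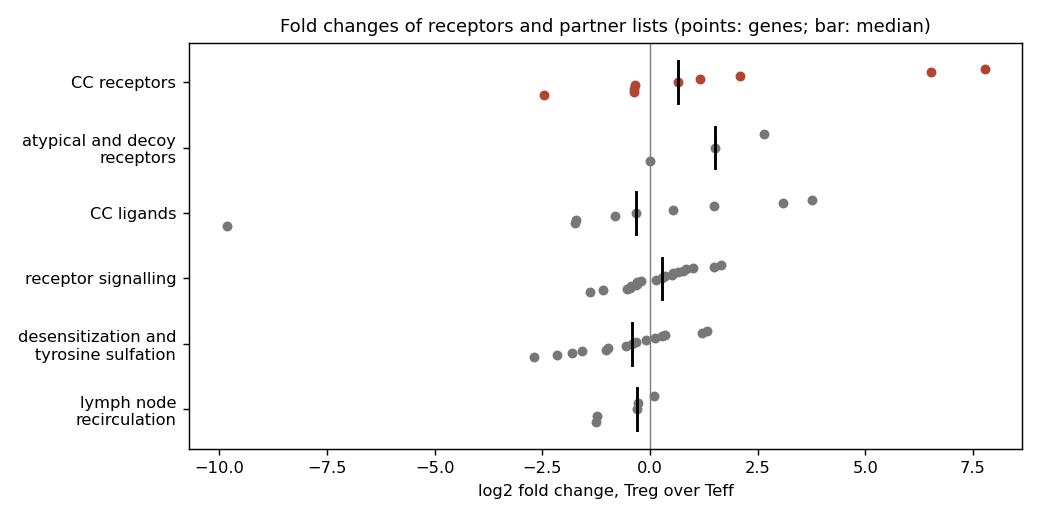
Each point is a gene's log2 fold change, Treg over Teff (horizontal axis), for the 9 CC receptors and the tested members of 5 partner lists, with a bar at each list's median. Ccr3 and Ccr1 lie farthest to the right, and the ligand farthest to the left is Ccl1, whose fitted value rests on no count in Tregs and is no measured fold.

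The profiles most like each receptor over the 6 libraries were sought by the root mean square difference of centred log2(CPM + 1) values among 4538 genes with a mean of 50 CPM or more. For Ccr3 the nearest was Ccr1 (0.77), followed by Klrg1 (0.93), an inhibitory lectin-like receptor. For Ccr1 it was Ikzf4 (0.57), which encodes the Ikaros family factor Eos and was at 107 to 369 CPM in Tregs and 0.794 to 3.68 CPM in Teffs. For Ccr6 the nearest were Fam169b (0.22) and Peli1 (0.23), for Ccr2 Zbtb1 (0.15) and P2ry10 (0.18), which share its high value in Treg 1, and for Ccr8 Kbtbd11 (0.11) and Fyb (0.14). Kbtbd11 (0.12) and Ccr8 (0.16) were the nearest to Ccr10. For Ccr4 they were Atp5f1 (0.09) and Smc6 (0.12), for Ccr7 Casp4 (0.24) and Casp6 (0.26), and for Ccr9 Ptcd3 (0.74) and Tnfsf9 (0.75). With 6 libraries and this many genes, close profiles are a description.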

How the data were processed

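Per the file headers and values, the authors deposited 1 table with raw whole-number counts per gene for the 6 libraries, together with their own comparison: a log2 fold change, a mean log2 CPM, a p-value and an FDR per row. Per the labels' protocols, sorted cells were frozen, RNA was column-purified, and a SMARTer kit for small inputs made the cDNA. The submitters' processing notes name TopHat2 2.0.12, HTSeq 0.6.1, CASAVA 1.8.2 and mm10 among the tools and builds. Which annotation, strand setting and test they used was not given in the sources used here. An edgeR exact test on all 15109 rows, added after seeing the data, gave the deposited log2 fold changes to within 0.0012 and the same 43 calls.

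The 3 rows without a gene took 88% to 90.2% of column totals and were left out of library sizes. Genes passing filterByExpr (smallest count 10) were fitted with edgeR 4.0.16 (R 4.3.3) on group alone, with TMM scaling, and p was Benjamini-Hochberg adjusted over 11775 genes. SE is the fold change over the square root of F. DESeq2 1.42.0, other scalings and filters, each library left out and a replicate block were alternatives. Intervals and floors cover counting error only.

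Gene lengths and positions came from GENCODE M21, in which 98.9% of the table's genes matched, and promoters from RefSeq. Genes were named by rule: all receptors, Foxp3, up to 3 members of each pathway list with the smallest p, 2 nearest profiles per receptor and genes of the chromosome 9 cluster. Rasgrp2 and single cell type markers were named after their values were seen. Members and lists were chosen with earlier results of these data known. A further CC receptor row is not reported here.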

Additional observations from a re-analysis of the deposited data

Results flagged for a closer look

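Among the 4 Treg libraries, 18 groups of values (the level and the share of each receptor) were checked for a library far from the others, which chance flags in about 1 in 20 groups, and 3 were flagged. The Ccr2 level of 1788 CPM in Treg 1 stood apart from the other 3 Treg libraries. The Ccr9 level of 7.13 CPM in Treg 4, and its share of 0.0518% of CC receptor transcripts there, stood apart from Treg libraries at or near 0.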

How the results depend on the processing

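The receptors called numbered 0 in the quasi-likelihood fit, 1 (Ccr3) with no filter, 3 with DESeq2 and 2 with the added edgeR exact test, and 0 under all other alternatives. Over all genes, the 5 calls became 19 with no filter, 218 with DESeq2, 43 with the exact test and 15 with the replicate block, and 0 to 2 when any 1 library was left out. The replicate block, with Treg 3 and Treg 4 outside the comparison, called 0 of 9 receptors. Same-numbered libraries deviated with correlations of -0.01 and 0.17. The deviations of the 2 Teff libraries from their own mean mirror each other, so these values cannot test a pairing. The labels state none. Of 125 fold changes of receptors under alternatives, 1 changed sign: Ccr10, which ran from -0.84 to 0.24 over the libraries left out, the positive value without Teff 2. Upper-quartile scaling moved the median log2 fold change of all genes to -0.04, against 0.07. The block moved it to -0.64. Leaving out Teff 2, the library with all Teff counts of Ccr3 and Ccr1, gave fitted values of 12.81 and 12.13 that depend on the prior count. Ccr9 fell below the filter at a mean CPM of 10. With raw totals, all Treg libraries lay above both Teffs for Ccr1, Ccr2, Ccr3 and Ccr6, and below them for Ccr4. The composition distance between groups, 31.7 percentage points, was 27.1 to 36.8 when 1 library was left out. Counts limit Ccr9 in Tregs and Ccr3 and Ccr1 in Teffs.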
